A study of Mus musculus with 18 samples.

Results

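The 38 genes described here are known from human genetics as risk genes for autism and related neurodevelopmental conditions, and they were followed in purified mouse microglia with and without an altered Chd8 gene. They were taken as a list of symbols, with the CHD family itself left out, and each one that was counted well enough to test was kept. All 38 passed the filter on low counts, which 10948 of the 55414 listed gene identifiers passed. Microglia are macrophages that reside in the brain. The assay was MARS-seq on bulk RNA, in which the 3' end of each captured poly(A) transcript receives a unique molecular identifier (UMI), so that copies made by amplification are counted once. The 18 libraries formed 4 groups, female knockout (KO, 4 libraries), female wild type (WT, 4), male KO (5) and male WT (5), and each library is named here by its group and its replicate number in the labels. The KO and WT labels refer to CHD8, and they do not say how many copies were altered, in which cells, which exons were removed or how old the mice were. They also do not say that replicates were separate animals, so p-values measure the spread between these libraries, which may be technical.

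CHD8 is a chromatin remodeler that uses ATP to move nucleosomes. Most of the risk genes followed here act in the nucleus as well. They write, read or erase marks on histones and DNA, or they tie transcription factors to the transcription machinery. A smaller number tag proteins with ubiquitin or relay growth signals through kinases, phosphatases and small GTPases. In the developing brain, loss of CHD8 has been linked to altered expression of other autism risk genes. The comparisons ask whether KO moved these genes in microglia, as single genes and as a list, in each sex.

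Total UMI counts ranged from 435838 to 9149144 per library, and the 38 genes together held 0.144 to 0.21% of them. The number of reads per UMI fell into 3 separate ranges, with 8 libraries at 1.79 to 1.89, 6 at 2.94 to 3.12 and 4 at 5.52 to 7.26. The highest range was all female, with 3 of the 4 WT libraries and KO 33, and 7 of the 8 libraries of the lowest range were male. All 12 microglial markers were detected in every group, with summed values of 48683 to 58647 CPM (UMI counts scaled by the library total) across libraries. Markers of other cells also differed. In males, the summed CPM of 10 neuronal markers was 71.7 to 339 in KO and 14.7 to 39.2 in WT, that of 10 astrocyte markers 275 to 591 and 139 to 199, that of 10 oligodendrocyte lineage markers 244 to 834 and 101.4 to 155, and that of 10 border-associated macrophage markers 171 to 272 and 37.0 to 69.5. In females the neuronal sums overlapped (28.5 to 89.1 in KO, 31.1 to 124 in WT), and 10 neutrophil markers summed to 994 to 5257 in KO and 2161 to 15688 in WT, which also overlap. Even so, edgeR called 6 of these 10 neutrophil markers lower in female KO, with a median log2 fold change of -2.03. Of all tested genes, 1.83% were called lower there. The female groups did not overlap for 9 monocyte markers, which summed to 144 to 225 CPM in KO and 229.7 to 751 in WT, with 5 of the 8 tested called lower in KO by edgeR. All 10 neuronal markers were detected in both male groups and all 10 astrocyte markers in male KO, while Gja1 and Slc4a4 (astrocytes) and Mog and Olig2 (oligodendrocyte lineage) were at 0 in male WT. The part of these cells and of reads per UMI in the results that follow was not tested beyond the values given beside each result.

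Chd8 itself checks the labels. Its TMM-scaled level in male KO was 102, 97.4, 116, 96.4 and 109 CPM in replicates 36, 6, 9, 17 and 40, and in male WT it was 167, 156, 159, 135 and 143 CPM in replicates 13, 37, 10, 11 and 14, so the male groups did not overlap. In female KO it was 139, 116, 117 and 121 CPM in replicates 33, 16, 1 and 7, against 186, 132, 181 and 164 CPM in female WT replicates 34, 39, 31 and 30, where WT 39 lay inside the KO range. Averaged over the sexes Chd8 fell by 0.49 ± 0.08 on the log2 scale (± SE here and below), with an adjusted p of 0.000413 in edgeR's quasi-likelihood test. The fall was called in males (log2 fold change -0.54 ± 0.10, adjusted p = 0.00171 in edgeR) and was just short of the threshold of 0.05 in females (-0.44 ± 0.12, adjusted p = 0.0547). Chd8 was therefore lower in KO but far from absent. Whether the 3' tags lie outside the altered part of the gene is not known from the labels.

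RNA of nearly the whole list was counted in these libraries. The list was chosen with earlier results of these data known, so its levels do not speak for risk genes at large. Among 49 further risk genes outside the list, 23 passed the filter. Markers of other cells were also counted here, and which cells held the RNA of each gene was not tested. Of the 38 genes, 37 had at least 1 UMI in every library, and the exception was Nf1, with 0 UMIs in female KO 33, the library of lowest depth. Mean levels ran from 2.49 CPM for Bcl11a, a zinc finger repressor, to 147.9 CPM for Trio, an exchange factor that activates small GTPases. The median over the list was 39.1 CPM against 27.3 CPM over all tested genes, and 25 of the 38 lay above the latter. In every group 32 were at 10 CPM or more, and 5 were under 10 CPM in every group. The other transcription regulators of high level included Tcf4, a basic helix-loop-helix factor (137.4 CPM), Dnmt3a, a DNA methyltransferase (113.8 CPM), and Ankrd11, an ankyrin repeat coregulator (101.3 CPM). CPM values of a 3' end count need no correction for transcript length, but capture can differ between genes, so these levels describe counts rather than molecules per cell.

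Features that the list did not use were set beside those of all tested genes. They span a median of 106.8 kb in the GENCODE M21 annotation of GRCm38 against 20.7 kb for all tested genes, and 20 of 38 (52.6%) span 100 kb or more against 10.4% of tested genes. They lie on 14 chromosomes. Promoters of 31 of the 38 were matched in the RefSeq set of GRCm38.p6, with 41 promoter windows that run from 250 bases before to 50 after a start site. The GC box GGGCGGG, searched on both strands, was in 56.1% of these windows, in 46.3% of the windows of tested genes and in 25.6% of all windows. Some windows overlap, so a box can be counted more than once, as in Dnmt3a and Ppp2r5d. By gene, the box was in 58.1% of the 31 matched genes, 52.5% of tested genes and 27.9% of all. By gene, then, the list was near the tested genes. The windows of the listed genes held a median of 9.67 CpG per 100 bases, those of tested genes 7.0 and all windows 2.33. The ETS motif CCGGAAG went the other way, with 7.3% of the listed genes' windows, 18.9% of those of tested genes and 8.9% of all. A match describes letters in a window and not a bound site, and some of the GC boxes lie in longer runs of C and G. Ep300, Rai1 and Med13l, called in comparisons below, had no GC box found upstream in a matched window, and that of Rai1 lies after the start site. Stretches of 30 bases upstream of the start site follow for 5 other called genes, picked because they hold the box there. The GC box is in capitals on the gene's own strand (GGGCGGG) or as its reverse complement (CCCGCCC).
Ube3a, chr7:59228638-59228667, plus strand: agctgcgatcgGGGCGGGgcagagcccgtc
Crebbp, chr16:4213411-4213440, minus strand: gcggcggccggGGGCGGGcggtgagcgctg
Tbl1xr1, chr3:22076419-22076448, plus strand: ggctcccctccCCCGCCCagctctccttct
Kmt2c, chr5:25498902-25498931, minus strand: tcgcgtcgcgcCCCGCCCcgccccgctcgg
Trio, chr15:28026005-28026034, minus strand: cccctccaggaCCCGCCCacaaaaggcccc

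With the sexes averaged at equal weight, 3 of the 38 genes changed in KO. Ep300 and Rai1 rose and Ube3a fell, by 1.39, 1.31 and 1.63-fold. That is 2 genes higher and 1 lower, where 4.37% of all tested genes were called higher and 5.13% lower (9.5% in either direction), so the share called in the list in either direction was not above that of all genes. DESeq2 called the same 3 genes. The median log2 fold change of the list was -0.01, and 95% intervals of 36 of the 38 genes lay within 1 log2 unit of 0, those of 23 within 0.5. As these are bulk libraries, fewer cells of a type and less RNA per cell cannot be told apart for any gene.

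**Figure D1:**
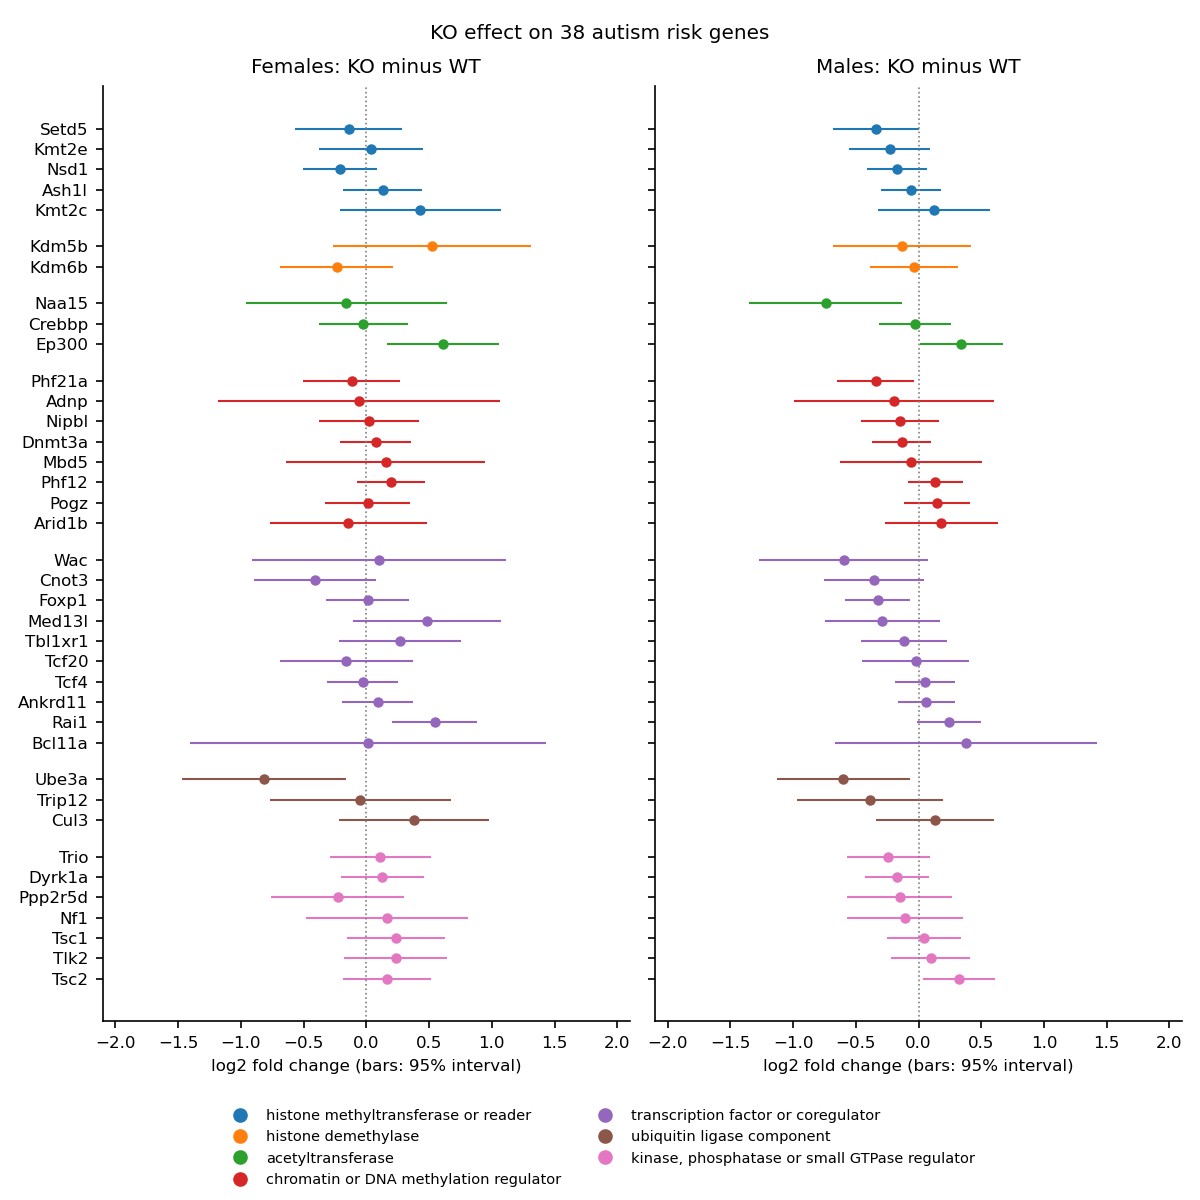
KO effect of each of the 38 genes as log2 fold change of KO over WT (x axis) with 95% confidence intervals. Genes are ordered and coloured by role, with 1 panel for females and 1 for males. No gene of the list was called by edgeR in either sex alone. The average of the sexes, in which Ep300, Rai1 and Ube3a were called, is not drawn.

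Ep300 encodes p300, a histone acetyltransferase and coactivator (chr15:81585351-81652077, plus strand, GRCm38). In female KO its level was 30.9, 76.0, 39.1 and 44.2 CPM in replicates 33, 16, 1 and 7, against 31.3, 34.4, 31.5 and 35.6 CPM in female WT 34, 39, 31 and 30. In male KO it was 74.7, 93.3, 79.2, 77.1 and 69.5 CPM in replicates 36, 6, 9, 17 and 40, against 56.5, 71.2, 71.6, 62.5 and 48.5 CPM in male WT 13, 37, 10, 11 and 14. KO libraries were mostly above WT libraries of their sex, but female KO 33 lay below all 4 female WT libraries and male KO 40 lay inside the male WT range. The averaged log2 fold change was 0.48 ± 0.13 (adjusted p = 0.0269 in edgeR), with 0.61 ± 0.22 in females (adjusted p = 0.142) and 0.34 in males. The call was lost when female KO 16, female WT 31 or male WT 14 was left out. Female KO 16, at 76.0 CPM, was the only female library in the lowest range of reads per UMI. In that range male KO libraries were at 69.5 to 93.3 CPM and male WT at 56.5 to 71.6 CPM. No female WT library lay in it, so KO and range cannot be told apart for female KO 16. With the range of reads per UMI as a covariate the averaged value was 0.29 (adjusted p = 0.286 in edgeR). Crebbp, the paralogue of Ep300, had values of -0.02 in females and -0.03 in males on the same scale. Naa15, a subunit of the complex that acetylates the N terminus of proteins, is described with the males below.

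Rai1 encodes a nuclear protein that binds nucleosomes and regulates transcription (chr11:60105013-60199197, plus strand). Its level in female KO was 66.9, 71.0, 61.3 and 51.9 CPM, in the order of replicates given for Ep300, against 35.8, 48.8, 43.3 and 39.5 CPM in female WT. Every female KO library was above every female WT library, which held for no other gene of the list, where 2.48% of all tested genes lay wholly higher and 2.84% wholly lower in female KO. In male KO it was 64.8, 64.9, 77.7, 93.0 and 82.2 CPM against 64.2, 63.4, 71.6, 53.0 and 72.1 CPM in male WT, and these ranges overlapped. The averaged log2 fold change was 0.39 ± 0.10 (adjusted p = 0.0179 in edgeR), with 0.54 ± 0.16 in females (adjusted p = 0.0811) and 0.24 in males. With the range of reads per UMI as a covariate it was 0.34 with an adjusted p of 0.1205 in edgeR. The last 2 kb of Rai1 overlap Srebf1 on the other strand, and since the strand setting of the counting is not given in the sources used here, reads of the pair cannot be told apart. Srebf1 itself had a value of -0.21 ± 0.10 (adjusted p = 0.198 in edgeR).

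Ube3a encodes a ubiquitin ligase that is imprinted in neurons (chr7:59228750-59311536, plus strand). In female KO it was at 12.9, 22.2, 14.9 and 12.9 CPM, in the same order of replicates, against 49.3, 30.4, 26.98 and 18.6 CPM in female WT. In male KO it was at 6.96, 12.8, 20.9, 11.1 and 10.6 CPM against 15.5, 25.2, 18.5, 14.8 and 16.3 CPM in male WT. All but 1 of the KO libraries of each sex lay below every WT library of that sex, the exceptions being female KO 16 and male KO 9. The averaged log2 fold change was -0.71 ± 0.20 (adjusted p = 0.0299 in edgeR), with -0.82 ± 0.31 in females (adjusted p = 0.184) and -0.60 ± 0.26 in males (adjusted p = 0.209). Leaving out any of 7 libraries ended the call (female KO 1 and 7, female WT 34, male KO 36, 17 and 40, male WT 37), and the reads-per-UMI covariate gave -0.78 with an adjusted p of 0.0758. Ube3a overlaps the noncoding gene Snhg14 on the other strand, which held 46 UMIs over all libraries. The other ubiquitin ligase components were not called. Cul3, a cullin scaffold, had an averaged value of 0.26 and Trip12, a ligase of the same HECT class as Ube3a, of -0.22.

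**Figure D2:**
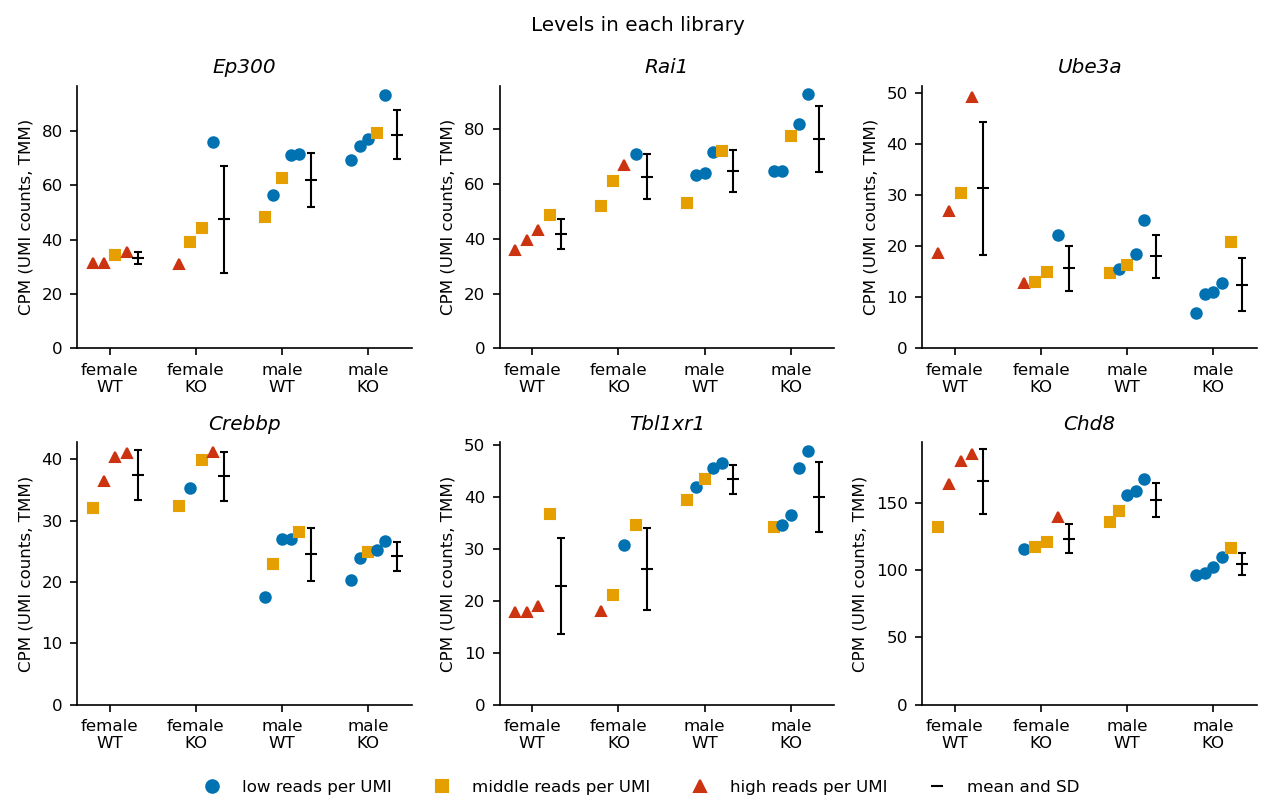
Level of 6 genes in each of the 18 libraries (y axis, TMM-scaled CPM) by group, with points coloured by the range of reads per UMI and a bar at each group mean. Rai1 is higher in all 4 female KO libraries than in any female WT library, and Ube3a is lower in KO with 1 library of each sex inside the WT range.

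The next lowest p-values of the average were those of Cnot3 and Tsc2, which did not pass. Cnot3, a subunit of the CCR4-NOT complex that shortens poly(A) tails, was at -0.38 ± 0.15 (adjusted p = 0.122 in edgeR). Tsc2, which with Tsc1 restrains mTOR signalling, was at 0.24 ± 0.11 (adjusted p = 0.186 in edgeR), and Tsc1 was at 0.14. The last 2 kb of Cnot3 overlap Leng1 and those of Tsc2 overlap Pkd1, each on the other strand. Of 5 histone methyltransferases and readers, Kmt2c was at 0.28, Ash1l at 0.03, Kmt2e at -0.10, Nsd1 at -0.19 and Setd5 at -0.24, none called. The histone demethylases Kdm5b and Kdm6b were at 0.20 and -0.14. Among the chromatin regulators, values ran from -0.23 for Phf21a, a reader of unmethylated histone H3, to 0.17 for Phf12, and included -0.03 for Dnmt3a, -0.06 for the cohesin loader Nipbl, 0.02 for the BAF subunit Arid1b and -0.13 for Adnp, a zinc finger protein that binds chromatin. The kinases Dyrk1a and Tlk2 were at -0.02 and 0.17, Ppp2r5d, a regulatory subunit of protein phosphatase 2A, at -0.19, Trio at -0.06 and Nf1, a GTPase-activating protein for RAS, at 0.03.

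In females alone, none of the 38 genes was called by edgeR, and none by DESeq2, with 3 at an unadjusted p under 0.05. Of all tested genes 2.68% were called in this comparison, 0.849% higher and 1.83% lower. The list had 24 values above 0 and 14 below, 63.2% above against 51.2% of all genes, and its median log2 fold change was 0.06 against 0.01. The lowest p-values after Rai1, Ep300 and Ube3a were those of Cnot3 and of Med13l, a part of the Mediator kinase module. Cnot3 was at 79.8, 92.5, 124 and 72.2 CPM in female KO and 190.3, 142, 60.7 and 125 CPM in female WT, ranges that overlap since WT 31 was below every KO library, with a log2 fold change of -0.41 ± 0.23 (adjusted p = 0.417 in edgeR). Med13l was at 20.6, 108, 94.8 and 62.9 CPM in the KO libraries and 67.2, 72.8, 38.2 and 54.2 CPM in WT, so that the lowest library, KO 33, belonged to the group of higher mean, with 0.48 ± 0.28 (adjusted p = 0.436 in edgeR). Intervals of 30 of the 38 genes lay within 1 log2 unit of 0 and of 11 within 0.5.

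In males alone, edgeR and DESeq2 again called none of the 38, with 6 at an unadjusted p under 0.05, where 6.24% of all tested genes were called (3.37% higher, 2.87% lower). Here 13 values were above 0 and 25 below, 34.2% above against 48.6% of all genes, and the median was -0.11 against -0.01. The genes of lowest p were Foxp1, Naa15, Ube3a, Tsc2 and Phf21a. Foxp1, a forkhead transcription factor, was at 46.0, 47.0, 60.7, 44.5 and 37.98 CPM in male KO 36, 6, 9, 17 and 40 and at 62.9, 55.3, 54.6, 62.8 and 56.1 CPM in male WT 13, 37, 10, 11 and 14, and only KO 9 reached the WT range (-0.32 ± 0.12, adjusted p = 0.147 in edgeR). Naa15 was at 8.65, 3.65, 12.9, 3.68 and 5.38 CPM in KO and at 11.1, 14.5, 9.01, 8.98 and 11.5 CPM in WT, again with KO 9 alone inside the WT range (-0.74 ± 0.29, adjusted p = 0.168 in edgeR).
Phf21a was at 82.9, 77.3, 112, 71.2 and 69.8 CPM in KO and at 129, 113, 104, 77.0 and 97.2 CPM in WT, where the ranges overlapped (-0.34 ± 0.15, adjusted p = 0.214 in edgeR). Tsc2 went the other way, at 77.2, 86.8, 81.2, 79.8 and 75.4 CPM in KO and 64.9, 66.2, 58.6, 74.4 and 55.2 CPM in WT (0.32 ± 0.14, adjusted p = 0.213 in edgeR). It was the only gene of the list whose male groups did not overlap, where 5.27% of all tested genes lay wholly higher and 4.58% wholly lower in male KO. Intervals of 34 of the 38 genes lay within 1 log2 unit of 0 and of 15 within 0.5.

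**Figure D3:**
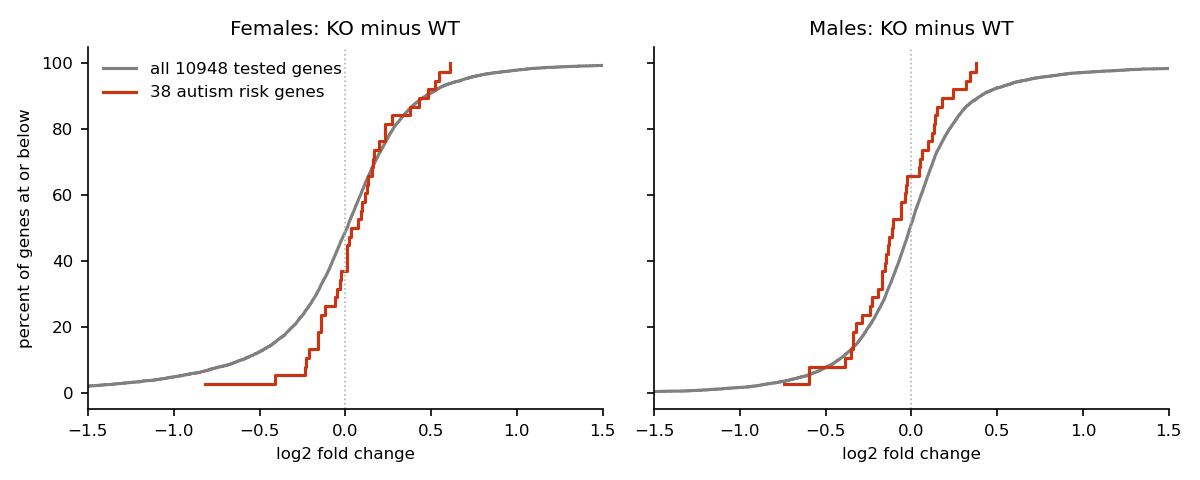
Cumulative share of genes (y axis) by log2 fold change of KO over WT (x axis) for the 38 risk genes and for all 10948 tested genes, in females and in males. The curve of the risk genes lies slightly to the right of that of all genes in females (median 0.06 against 0.01) and to the left in males (-0.11 against -0.01).

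The male values depended on which libraries were compared. Within the 7 male libraries of the lowest range of reads per UMI (KO 36, 6, 17 and 40, WT 13, 37 and 10), edgeR called 7 of the 37 genes that passed the filter there lower in KO and none higher, where 4.86% of all genes tested there were called lower and 4.26% higher. The 7 were Phf21a (-0.62, adjusted p = 0.00369), Med13l (-0.54, 0.0112), Trio (-0.40, 0.0115), Ube3a (-0.95, 0.0226), Cnot3 (-0.45, 0.0374), Foxp1 (-0.41, 0.0462) and Naa15 (-1.07, 0.0471), each as log2 fold change with its adjusted p in edgeR. In these 7 libraries 11 of the 38 genes lay wholly lower in KO and 1, Tsc2, wholly higher, where 10.7% of all tested genes lay wholly lower and 10.9% wholly higher. The median of the list was -0.14 there against 0.01 for all genes, and 26 of 37 values were below 0.
This comparison leaves out male KO 9, which had the highest male KO level of Foxp1, Naa15, Phf21a, Ube3a, Med13l (119 CPM, others 64.5 to 86.7) and Trio (188 CPM, others 146 to 158). Leaving out male KO 9 alone gave 2 calls, Foxp1 (-0.42, adjusted p = 0.0399 in edgeR) and Naa15 (-0.997, 0.0326), both lower. In the middle range of reads per UMI, with KO 9 and WT 11 and 14 as its only male libraries, KO 9 was above both WT libraries for Naa15, Phf21a, Ube3a, Med13l and Trio, the other direction from the lowest range. For Foxp1 it lay between them (60.7 CPM against 62.8 and 56.1), and for Cnot3 it lay below both (93.1 CPM against 96.1 and 106.2). The neuronal, astrocyte and oligodendrocyte marker sums given above were higher in KO over these same males. Male KO 9 had the highest of these 3 sums among all 18 libraries (339, 591 and 834 CPM). Leaving it out therefore changes both the range of reads per UMI and these sums. The part of these cells in the male values was not tested.

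The KO effect itself was not found to differ between the sexes for any gene of the list. edgeR called 0 of 38 for the female minus male difference, DESeq2 also 0, with 1 at an unadjusted p under 0.05, where 0.237% of all genes were called (0.0457% higher in females, 0.192% lower). The median difference was 0.20 log2 units and 27 of 38 values were above 0, 71.1% against 51.1% of all genes. With the range of reads per UMI as a covariate that median was 0.03. The lowest p-values were those of Med13l (0.77 ± 0.36, adjusted p = 0.538), Foxp1 (0.34, 0.695) and Dyrk1a (0.30, 0.747) in edgeR. Of these Med13l had a female value of 0.48 and a male value of -0.29, and the female value turned to -0.11 with the covariate. Across the 38 genes, female and male effects had a Pearson r of 0.497 and a Spearman rho of 0.444 as a description over genes, which are not independent replicates, and 23 (60.5%) had the same sign against 62.4% of all genes.

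Male and female libraries were compared within each genotype. Among WT libraries, edgeR called 6 of the 38 higher in males (Ep300, Tbl1xr1, Rai1, Trio, Med13l and Kmt2c) and 1 lower (Crebbp), where 6.94% of all tested genes were called higher and 10.3% lower (17.3% in either direction), so 7 of 38 is near the share of all genes in either direction. By direction, more of the list was called higher than lower in males, while more of all genes were called lower. This difference in direction was not tested. Levels lay wholly higher in WT males for 8 genes and wholly lower for 2, against 8.81 and 9.41% of all genes. Tbl1xr1, a subunit of NCoR corepressor complexes (chr3:22076652-22216594, plus strand), was at 42.0, 45.7, 46.6, 43.4 and 39.5 CPM in male WT and 17.9, 36.8, 19.1 and 17.8 CPM in female WT, and only female WT 39 came near the males (0.89 ± 0.21, adjusted p = 0.00645 in edgeR). Female WT 39 was also the only female WT library in the middle range of reads per UMI, the others being in the highest. Ep300, with the WT levels given above, was also wholly higher in males (0.89 ± 0.20, adjusted p = 0.00456), as was Rai1 (0.60 ± 0.15, adjusted p = 0.00951).
Trio (chr15:27730651-28025848, minus strand) was at 198, 186, 214, 153 and 180.1 CPM in male WT and 129.9, 117, 111 and 112 CPM in female WT, with no overlap (0.68 ± 0.18, adjusted p = 0.0138 in edgeR). Med13l was at 77.6 to 125 CPM in male WT and 38.2 to 72.8 CPM in female WT (0.87 ± 0.27, adjusted p = 0.0278), a call that leaving out female WT 31 or 30 or male WT 13 or 10 ended. Crebbp, the acetyltransferase next of kin to Ep300 (chr16:4081328-4213997, minus strand), went the other way. It was at 17.5, 26.9, 27.03, 28.1 and 22.96 CPM in male WT against 40.3, 32.01, 41.0 and 36.4 CPM in female WT (-0.61 ± 0.16, adjusted p = 0.0121 in edgeR), a call that was lost without female WT 31. So in these WT libraries Ep300 was higher and its paralogue Crebbp lower in males. Neither call held with the range of reads per UMI as a covariate, as given below.

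In KO libraries, 1 gene of the list was higher in males, Ep300 (0.62 ± 0.18, adjusted p = 0.0382 in edgeR), and 1 lower, Crebbp (-0.61 ± 0.15, adjusted p = 0.0177), where 2.83% of all genes were called higher and 4.27% lower (7.1% in either direction). Crebbp was at 23.8, 25.2, 24.9, 26.7 and 20.3 CPM in male KO and 41.2, 35.3, 32.4 and 39.9 CPM in female KO, with no overlap, while the ranges of Ep300 overlapped through female KO 16. Crebbp and Dnmt3a lay wholly lower in male KO and no gene of the list wholly higher, against 4.53 and 4.69% of all genes. Leaving out any of female KO 33, 1 and 7 or male KO 36, 6, 9 and 17 ended the call of Ep300, and leaving out female KO 7 or male KO 40 ended that of Crebbp.

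The sexes also differed in reads per UMI, and every sex call of the list was lost when its range entered the model. With that covariate edgeR gave WT values of 0.49 for Ep300 (adjusted p = 0.387), 0.21 for Tbl1xr1 (0.753), 0.48 for Rai1 (0.304), 0.22 for Trio (0.741), 0.16 for Med13l (0.886), -0.10 for Kmt2c (0.922) and -0.38 for Crebbp (0.461). In KO it gave 0.45 for Ep300 (0.147) and -0.54 for Crebbp (0.0762). Over all genes the calls between WT males and females went from 1892 to 271. No female WT library shares the lowest range with the 3 male WT libraries in it, and no male library the highest, so in WT those ranges and sex cannot be told apart. Markers of other cells moved with sex as well. In male WT the summed neutrophil markers were 316 to 1151 CPM and the monocyte markers 64.5 to 96.6 CPM, below every female WT library, and edgeR called 10 of 10 and 8 of 8 tested markers lower in males, and 9 of 10 of border-associated macrophages. In male KO the neutrophil sums were 325 to 629 CPM and the monocyte sums 57.8 to 120.2 CPM, also below every female KO library. The part of these cells in the sex differences was not tested.

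**Figure D4:**
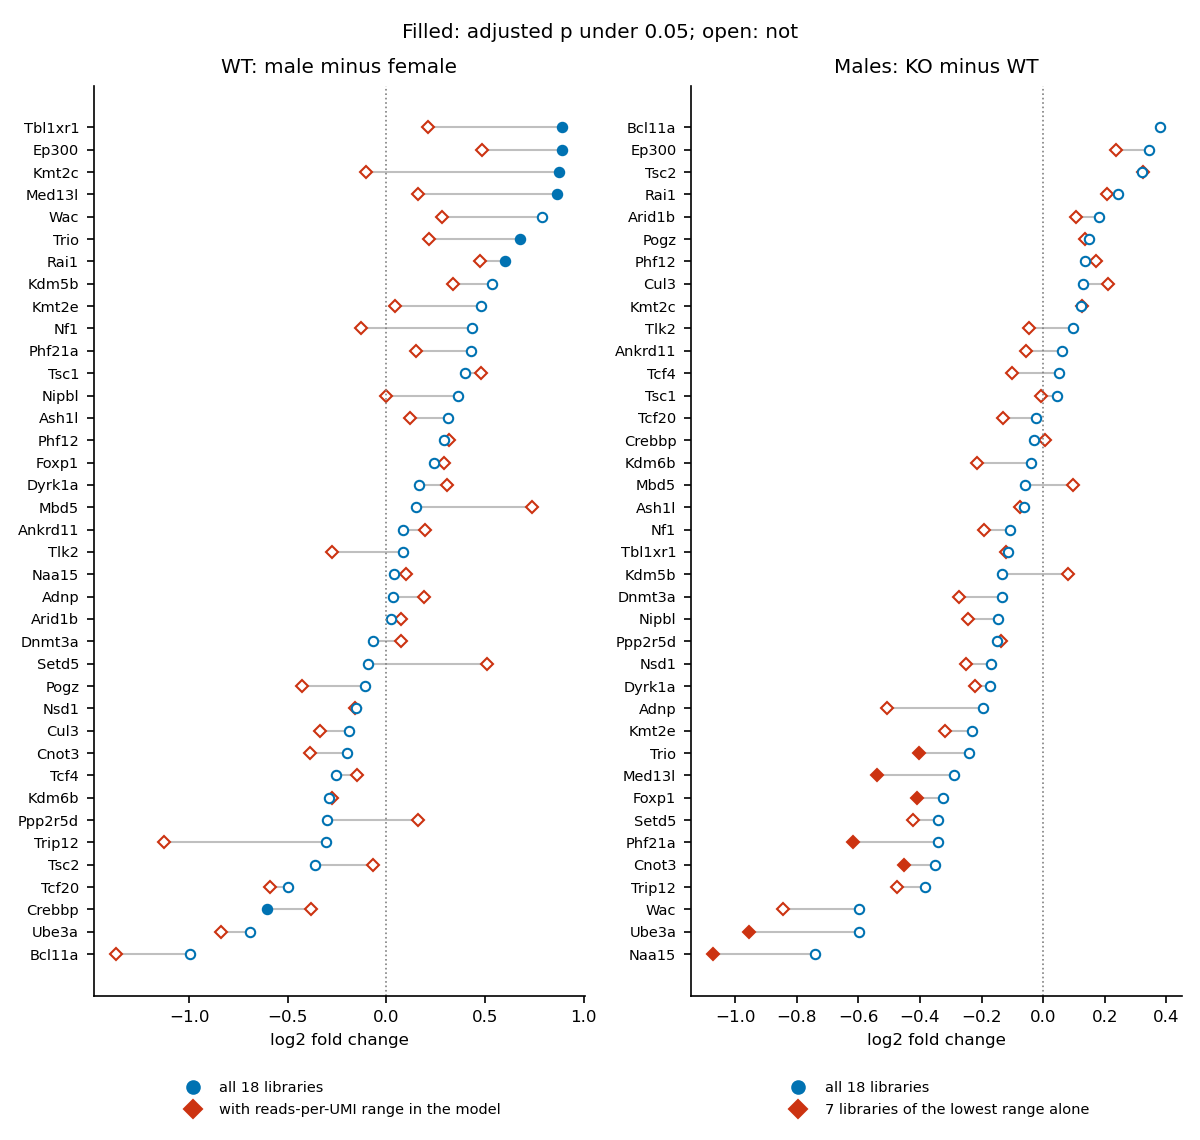
Log2 differences (x axis) of the genes of the list in 2 panels, filled where the adjusted p in edgeR was under 0.05 and open otherwise. The first panel shows male against female in WT, with and without the range of reads per UMI as a covariate. The second shows KO against WT in males, over all libraries and within the 7 libraries of the lowest range. Sex differences of the called genes shrink with the covariate (Tbl1xr1 from 0.89 to 0.21). Male KO differences of the 7 genes called within the range grow there (Phf21a from -0.34 to -0.62).

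Partners of these genes in their complexes and pathways were compared in the same way. Of 123 listed, 118 were tested, and averaged over the sexes 3 rose and 1 fell, where 4.37% of all tested genes were called higher and 5.13% lower. Cbx5, the heterochromatin protein HP1 alpha, rose by 0.82 on the log2 scale and Cops5, the catalytic subunit of the COP9 signalosome, which removes NEDD8 from cullins, by 0.44 (adjusted p = 0.0291 in edgeR). Smarca4, the ATPase of the BAF complex, rose by 0.31 (adjusted p = 0.0497). Setd1a, a histone H3 lysine methyltransferase of the KMT2 family, fell by 0.30 (adjusted p = 0.0409).
In females, where 2.68% of all genes were called, Cbx5 was the 1 partner called, with a KO mean of 22.2 ± 8.25 CPM against 10.6 ± 1.49 CPM in WT (SD, n = 4 each), a log2 fold change of 1.16 ± 0.24 (adjusted p = 0.0127 in edgeR). In males, where 6.24% of all genes were called, Setd1a was the 1 partner called, with a KO mean of 35.7 ± 2.28 CPM against 52.3 ± 6.52 CPM in WT (SD, n = 5 each), a log2 fold change of -0.56 ± 0.11 (adjusted p = 0.00326 in edgeR). None of 10 tested cohesin genes, 15 of mTOR signalling, 13 of RAS signalling, 12 of the CCR4-NOT complex and 5 of the NCoR complex was called by edgeR in any of the 3 KO comparisons, where 2.68% (females), 6.24% (males) and 9.5% (average) of all genes were.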

How the data were processed

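RNA of purified microglia was barcoded from 30 ng per sample, pooled and made into bulk MARS-seq libraries, per the labels' protocols. The authors deposited a table of UMI-corrected whole-number counts per gene, used here, and a table of read counts. The submitters' processing notes name cutadapt, STAR, HTSeq and mm10. Versions, annotation, strand setting and UMI method: not given in the sources used here. Each table has 16 columns that match no sample used, left out of every step. Symbols and coordinates came from GENCODE M21.

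Counts were filtered with filterByExpr, scaled by TMM and fitted in edgeR 4.0.16 (R 4.3.3) by its quasi-likelihood test with 1 mean per group over all 18 libraries. The threshold for a call was 0.05 for p adjusted by Benjamini-Hochberg over all 10948 tested genes. DESeq2 1.42.0, other filters and scalings, the read table, leaving libraries out and a covariate for reads per UMI were tried. On simulated data for the male comparison, with 200 of 10948 genes changed 2-fold (10643 passed the filter), 79.5% were called, with 7 unchanged genes. Changes smaller than 2-fold were not simulated, so this share does not describe them. UMI counts limit precision at low levels (109 to 7968 UMIs per gene of the list), and intervals come from the fit.

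The genes, partner lists and marker lists were chosen with earlier results of these data known. Genes described with all values are Chd8, per KO contrast those called, filled to 5 by lowest p, per sex contrast up to 6 called, for the sex difference of the KO effect the 3 of lowest p, and of partner and other risk lists up to 4 called genes per KO contrast. Counts of same-group libraries, compared pair by pair, were further apart than sampling noise allows (chi-square per degree of freedom 2.92 to 14). That spread may be technical and does not show that the libraries came from separate animals. Each library was counted as 1 sample. The single-sex contrasts and their average share libraries.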

Additional observations from a re-analysis of the deposited data

Results flagged for a closer look

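In 7 of 152 groups (38 genes in 4 groups) the highest or lowest library stood apart from the rest by a gap test on CPM that chance meets in about 1 in 20 groups. Adnp was highest in female WT 34 at 17.9 CPM (next 4.65), from 8 UMIs. Tbl1xr1 was highest in female WT 39 at 36.8 CPM (next 19.1). Ppp2r5d was highest in female KO 33 at 77.2 CPM (next 36.1), from 30 UMIs, and Nf1 was lowest in the same library at 0 CPM (next 16.0). In male KO, Tcf20 was highest in replicate 9 at 24.9 CPM (next 18.3), Trio was highest in replicate 9 at 188 CPM (next 158), and Tsc1 was highest in replicate 6 at 51.4 CPM (next 42.0).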

How the results depend on the processing

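Beside the main analysis, 28 alternatives were run, of which 1, leaving out female KO 33 and female WT 34 together, was chosen after seeing the data. No paired analysis was possible because the replicate number differs for every library. Counts below are genes of the list of 38. In females, scaling by library total alone gave 1 higher (Rai1) and no filter 1 higher (Ep300), against 0. In males, fitting males alone gave 1 higher (Tsc2) and 1 lower (Cnot3), and the lowest reads-per-UMI range 7 lower, against 0. In the average (2 higher, 1 lower), no filter gave 2 lower, the table of reads gave 1 higher and 0 lower, the reads-per-UMI covariate 0 and 0, leaving out male KO 6, 9 and 17 gave 0 higher, and leaving out female KO 33 and female WT 34 gave 0 lower. Between WT sexes, no filter gave 0 lower and the covariate 0 and 0. Between KO sexes, no filter gave 0 lower, the table of reads, the covariate and leaving out male KO 6, 9 and 17 each 0 and 0, and leaving out female KO 33 and female WT 34 gave 0 higher. The covariate moved the list's median sex difference of the KO effect from 0.20 to 0.0317 and reversed Med13l in females (-0.11, adjusted p = 0.936 in edgeR). Leaving out 1 library at a time gave 0 to 2 lower in males, 1 to 2 higher and 0 to 2 lower in the average, 4 to 7 higher and 0 to 2 lower between WT sexes, and 0 to 2 higher and 0 to 1 lower between KO sexes. Of 26 alternatives for the average, the call was lost in 2 for Rai1 (adjusted p 0.00561 to 0.1205 in edgeR or DESeq2), in 6 for Ep300 (0.00208 to 0.286) and in 10 for Ube3a (0.00653 to 0.0814). Over all genes, calls in alternatives other than single libraries left out ranged from 0 to 532 in females (main 293), 196 to 1145 in males (683), 480 to 1476 in the average (1040), 1 to 238 for the sex difference of the KO effect (26), 271 to 2545 between WT sexes (1892) and 104 to 1354 between KO sexes (777). Scaling by library total moved the split of calls from 93 higher and 200 lower to 132 and 160 in females, and from 478 and 562 to 688 and 410 in the average. The cause of these shifts was not tested. Precision was lowest for genes under 10 CPM, which rest on few UMIs in the shallowest libraries.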

Other observations

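Of 49 further risk genes outside the list, 23 passed the filter, 5 of 22 synaptic and channel genes and 18 of 27 other regulatory genes. In males edgeR called 2 of the 23 higher in KO and none lower, where 3.37% of all tested genes were called higher and 2.87% lower. Map1a, a microtubule-associated protein abundant in neurons, was at 10.5 ± 7.49 CPM in male KO and 0.686 ± 0.6997 CPM in male WT (SD, n = 5 each), a log2 fold change of 3.62 ± 0.66 (adjusted p = 0.00125 in edgeR). Celf4, an RNA-binding protein of neurons, was at 22.2 ± 11.6 CPM and 8.90 ± 1.46 CPM in the same groups (1.26 ± 0.31, adjusted p = 0.0138 in edgeR). The summed neuronal markers were also higher in male KO (71.7 to 339 CPM) than in male WT (14.7 to 39.2 CPM), and their part in these values was not tested. In females edgeR called none of the 23, with 3 at an unadjusted p under 0.05, where 2.68% of all genes were called.

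Of 118 partner genes, 7 were called higher and 10 lower in male than female WT, where 6.94% of all tested genes were called higher and 10.3% lower. The WT counts are near the shares of all genes. In KO 1 was higher and 8 lower, where 2.83% of all genes were higher and 4.27% lower (7.1% in either direction). The KO total is near that share, with fewer higher and more lower than among all genes. That split rests on few genes and was not tested. Rheb, the small GTPase that activates mTOR complex 1, was higher in males in WT (log2 difference 0.99 ± 0.19, adjusted p = 0.00138 in edgeR) and in KO (0.70 ± 0.18, adjusted p = 0.0219). Cdk19, a kinase of the Mediator module that also holds Med13l, was lower in males in WT (-0.82 ± 0.19, adjusted p = 0.00529 in edgeR) and in KO (-1.17 ± 0.18, adjusted p = 0.00092). These genes were picked after their values were seen, and sex and reads per UMI overlap in these libraries as described above.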
